A study of Mus musculus with 10 samples.

Results

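The endothelium of the mouse brain was described in 5 of the 10 libraries of the series, those whose columns are labelled control diet. They came from 3 male and 2 female C57BL6 mice that carried no named allele and ate control diet for 1 month, and the sources used here give no age. The series set these mice beside mice fed PLX5622, an inhibitor of CSF1R, and no diet contrast was made here. Brains were freed of meninges, cerebellum and olfactory bulbs and dissociated, and cells positive for CD31, the surface protein encoded by Pecam1, were sorted by flow cytometry for polyadenylated RNA. The titles call the replicates biological.

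Levels are the authors' TPM values, transcript levels in which reads are divided by gene length and scaled to 1000000 per library. Recovered depth was 28.1 to 61.5M reads per library (M for mega), with control male 2 the deepest. The libraries resembled each other, with Pearson correlations of log2 levels between 0.978 and 0.991 across 10131 genes, which are not independent replicates. The labelled cell type was checked against its markers. Cldn5, a tight junction protein, stood at 8055, 8079 and 7505 TPM in males 1 to 3 and at 8071 and 7154 TPM in females 1 and 2. Slc2a1, the glucose transporter GLUT1, stood at 4994, 4743, 5494, 4565 and 5065 TPM in the same order, and Slco1a4, an organic anion transporter, at 2957, 2743, 2914, 2620 and 2756 TPM. Pecam1 had 1484, 1515, 1479, 1443 and 1459 TPM, and Cdh5, the cadherin of endothelial adherens junctions, 901.6, 935.3, 877.1, 884.3 and 953.6 TPM. All 5 markers were high in all 5 libraries. The sexes overlapped in 4 of the 5, and Pecam1, a little higher in each male than in both females, did not pass the limma test of sex.

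Brain capillaries differ from most vessels in that their endothelial cells form the blood-brain barrier. Tight junctions seal the gaps between the cells, vesicle traffic across them is held low, carriers bring in glucose, amino acids and hormones, and efflux pumps return drugs to the blood. Wnt signals from neural tissue, acting through beta-catenin, are known to induce and keep this state.

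The 4 sequences here show what lies before the starts of genes on which the description turns, the 3 most abundant barrier genes among the fixed markers and Fos, the most abundant immediate early gene. Each is the 250 bases before the gene's RefSeq start in GRCm38.p6, written 5′ to 3′ on the gene's strand. Capitals mark CACCC, the core that Krüppel-like factors recognise, on either strand (GGGTG when read on the opposite one), and TATAAA, the TATA box. Longer fixed strings for ETS factors and for TCF/LEF, the nuclear factors of Wnt signalling, were searched as well and stood in none of the 4 windows. Over all windows 12.2% held the ETS string and 14.05% the TCF/LEF string. Shorter forms were not searched, and GGAA, a short form of the ETS core, can be read in the windows of Fos and Slco1a4. The reads themselves were aligned to mm39, so these coordinates belong to the printed sequences alone.
Cldn5, chr16:18776597-18776846, + strand: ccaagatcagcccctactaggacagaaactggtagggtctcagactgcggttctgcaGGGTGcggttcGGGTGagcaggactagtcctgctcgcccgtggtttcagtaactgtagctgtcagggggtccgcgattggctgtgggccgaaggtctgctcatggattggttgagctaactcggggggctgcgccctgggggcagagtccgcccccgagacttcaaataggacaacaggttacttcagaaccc
Slc2a1, chr4:119108495-119108744, + strand: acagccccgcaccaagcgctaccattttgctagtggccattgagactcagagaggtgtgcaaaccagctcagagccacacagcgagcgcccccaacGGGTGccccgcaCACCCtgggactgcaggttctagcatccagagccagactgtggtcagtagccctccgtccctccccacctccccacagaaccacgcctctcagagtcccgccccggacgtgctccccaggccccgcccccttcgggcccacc
Slco1a4, chr6:141856221-141856470, − strand: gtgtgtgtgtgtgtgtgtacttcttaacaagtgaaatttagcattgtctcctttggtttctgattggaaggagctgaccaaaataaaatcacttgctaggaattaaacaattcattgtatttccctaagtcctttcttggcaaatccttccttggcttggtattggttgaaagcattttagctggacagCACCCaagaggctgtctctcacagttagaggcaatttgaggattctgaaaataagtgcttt
Fos, chr12:85473640-85473889, + strand: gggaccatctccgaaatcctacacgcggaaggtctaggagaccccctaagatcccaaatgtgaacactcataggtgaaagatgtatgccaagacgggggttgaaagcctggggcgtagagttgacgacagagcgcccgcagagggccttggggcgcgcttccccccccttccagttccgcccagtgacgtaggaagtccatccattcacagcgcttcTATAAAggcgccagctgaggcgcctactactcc

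The windows of Cldn5, Slc2a1 and Fos were 59.6%, 66.4% and 58.4% G and C, and that of Slco1a4 was 39.2%, beside a median of 52% over all 27025 RefSeq windows of this length. TATAAA stood 33 to 28 bases before the start of Fos on its own strand. Over all windows 2.22% held TATAAA at 15 to 40 bases before the start on the gene's strand. Anywhere in the window and on either strand, 12.97% held TATAAA and 51.3% held CACCC, so CACCC is common by its letters alone. A match is no evidence of binding, and the lack of a match is no evidence that binding is absent. Shares over sets of genes are not compared, because only 77 of the 100 most abundant genes and 78.3% of those at a mean of at least 1 TPM had a window in the table.

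A total of 12833 of the 26264 listed genes (48.9%) reached a mean of 1 TPM, and 11826 did so in every library. Just outside and just inside that level lay 158 genes at 0.9 to 1 TPM and 169 at 1 to 1.1 TPM. No read was recovered for 7166 genes in any of the 5 libraries. RNA was concentrated in few genes, with 50% of TPM resting on 535 genes and 130 genes at 1000 TPM or more. The 10 most abundant genes held 7.17 ± 0.267% of TPM (SD, n = 5, as for every ± on a level or share below), and the 100 most abundant held 26.03 ± 0.412%. Of those 100, 83 stood in every library's own top 100.

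The list was headed by Bsg, which encodes basigin (CD147), a glycoprotein that accompanies monocarboxylate transporters and is enriched on brain endothelium. It stood at 13450, 12275, 10895, 12848 and 11384 TPM in males 1 to 3 and females 1 and 2, a mean of 12170.5 ± 1043. Fos, a subunit of the AP-1 transcription factor, followed at 10386, 7721, 9423, 9702 and 9593 TPM, and its partner Jun at 8556, 7286, 7716, 8210 and 8224 TPM. Every library had Bsg above Fos without overlap of their ranges, and Fos above Jun in each library although their ranges overlapped. Next came Cldn5, the AP-1 subunit Fosb at 6893 ± 817 TPM, Tmsb4x, an actin-sequestering thymosin, at 6173 ± 465 TPM, and Junb at 5917 ± 380 TPM. Pltp, a phospholipid transfer protein, held 5372 ± 362 TPM, Itm2a, an integral membrane protein, 5029 ± 484 TPM, and Slc2a1 4972 ± 353 TPM. Order within the ranking was loose, since 38 of the 39 neighbouring pairs among the 40 most abundant genes had overlapping ranges. In 3 of the 39 pairs the order was the same in all 5 libraries, and these were Bsg over Fos, Fos over Jun and Pltp over Itm2a.

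**Figure D1:**
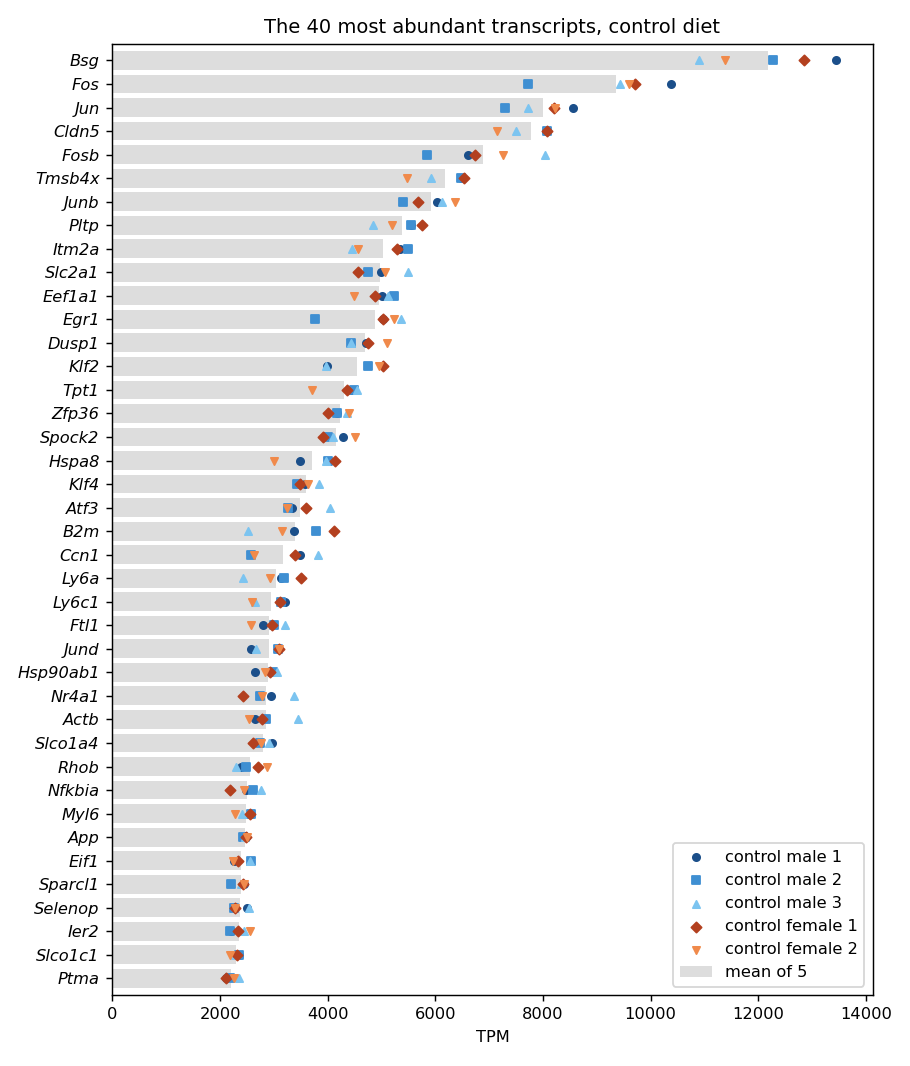
TPM (x axis) of the 40 genes of highest mean TPM (y axis, ranked), with a grey bar for the mean of 5 control-diet libraries and a point for each library. Bsg lies apart from Fos, while the points of most neighbouring genes overlap.

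Immediate early genes, which cells transcribe within minutes of a stimulus and without new protein synthesis, had the highest mean share of TPM of the classes listed. Their 20 measured genes held 6.53 ± 0.379% of TPM and 19 of them reached 1 TPM. The sum was 66483, 59065, 69105, 65038 and 66921 TPM in males 1 to 3 and females 1 and 2. Control male 2 was the lowest, and male 3 the highest. Egr1, a zinc finger factor, had 3764 TPM in male 2 and 5019 to 5356 TPM in the others, while the phosphatase Dusp1 (4691 ± 277 TPM) and the mRNA-destabilising protein Zfp36 (4220 ± 157 TPM) varied less. Other members were Atf3, a stress-induced factor, at 3491 ± 337 TPM, Ccn1, a matrix-associated signalling protein, at 3178 ± 550 TPM, and Nr4a1, an orphan nuclear receptor, at 2852 ± 345 TPM. Cells were dissociated with enzymes and sorted before RNA extraction, and the part of that handling in these levels was not tested, as no unhandled tissue is among the libraries.

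Cytosolic ribosomal proteins held nearly as much, 6.42 ± 0.470% of TPM, and the immediate early genes exceeded them in 3 of the 5 libraries. The class covered 87 genes, of which 84 reached 1 TPM. Their summed level was 65154, 67794, 65707 and 66191 TPM in males 1 to 3 and female 1, and 55929 TPM in female 2, which lay below the rest. The actin cytoskeleton list held 2.50 ± 0.119%, led by Tmsb4x and beta-actin (Actb). Translation factors held 1.81 ± 0.0975%, led by the elongation factor Eef1a1 (4946 ± 287 TPM) and by Tpt1 (4305 ± 342 TPM), and chaperones 1.58 ± 0.127%, led by Hspa8, the constitutive heat shock protein, at 3714 ± 471 TPM. The 85 nuclear-encoded subunits of oxidative phosphorylation held 1.3204 ± 0.106%, with the median member at 124 TPM. The 17 glycolysis genes held 0.338 ± 0.0113%, with the median member at 98.5 TPM and Gapdh at 602 TPM, and 16 of 17 reached 1 TPM. These sums cover lists of unlike size, and their shares of reads were 0.429% and 0.273%. None of the 13 mitochondrially encoded mRNAs is listed in the table, so they enter no share.

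Because TPM divides by length, the order of classes depends on the scale. As a share of reads, cytosolic ribosomal proteins held 1.81% and immediate early genes 5.50%, while solute carriers held 3.22% and the pan-endothelial list 3.35%. The 100 most abundant genes by TPM had a median length of 1852.5 bases beside 2934 bases for genes at 1 TPM or more. By reads not divided by length the first 5 were Fosb, Jun, Bsg, Fos and Flt1, the long VEGF receptor gene, which ranked 52 by TPM. The lists of 100 genes by the 2 measures shared 58.

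**Figure D2:**
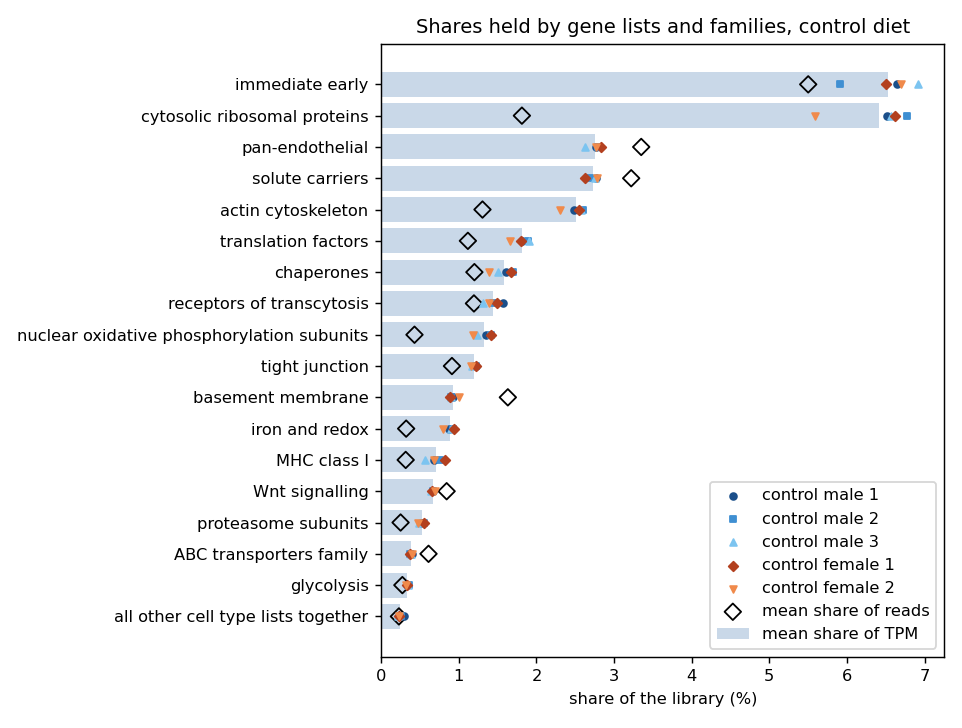
Share of the library in percent (x axis) held by gene lists and families (y axis), with a bar for the mean share of TPM, small points for the 5 libraries and open diamonds for the mean share of reads. Ribosomal proteins fall from 6.42% of TPM to 1.81% of reads, and immediate early genes change less, from 6.53% to 5.50%.

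Endothelial identity genes were at high levels, and all 30 of the pan-endothelial list reached 1 TPM, beside 48.9% of all genes. That count alone does not set them apart, since all 15 pericyte and all 17 astrocyte markers reached 1 TPM too. Together the 30 pan-endothelial genes held 2.76 ± 0.0799% of TPM. Ly6a (3034 ± 400 TPM) and Ly6c1 (2943 ± 299 TPM), small GPI-anchored surface proteins, led the list. Egfl7, a secreted endothelial protein, stood at 1865 ± 169 TPM, the VEGF receptor Flt1 at 1784 ± 187 TPM, and Eng, a co-receptor of the BMP pathway, at 1411 ± 71.0 TPM. The lists of endothelial and barrier genes, 178 genes when joined, held 9.55 ± 0.204% of TPM, and 164 of them (92.1%) reached 1 TPM.

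Tight junction genes were dominated by Cldn5, which was 616 ± 49.8 times as abundant as Cldn12, the next claudin, at 12.6 ± 0.534 TPM. Among all 33 claudins 8 reached 1 TPM and 15 had no recovered read. Cldn3 and Cldn1, claudins of epithelia, stood at 0.343 and 0.237 TPM. Esam, an endothelial adhesion molecule, had 1528 ± 36.3 TPM, Lsr, the angulin of tricellular junctions, 716 ± 28.4 TPM, the scaffold Tjp1 (ZO-1) 525 ± 73.6 TPM and Ocln (occludin) 257 ± 17.1 TPM. Of 19 tight junction genes, 14 reached 1 TPM. At the adherens junction, the catenin gene Ctnnb1 stood at 1627 ± 98.2 TPM, and control male 3 had 1455 TPM where the others had 1648 to 1691.

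Carriers held a large share, with 2.72 ± 0.0650% of TPM over 367 genes whose symbols mark solute carriers. Of these, 206 (56.1%) reached 1 TPM, beside 48.9% of all genes. That count includes Slc9a3r2 (1350 ± 61.1 TPM), a scaffold protein named after a carrier it binds. Slc2a1 led the family, and Slco1a4 and Slco1c1, which carries thyroid hormone, followed at 2798 ± 137 and 2300 ± 67.0 TPM. Slco1a4 exceeded Slco1c1 1.13 to 1.27 times in every library. Slc6a6, the taurine transporter, stood at 1536 ± 171 TPM, Slc22a8, an organic anion transporter, at 594 ± 30.7 TPM, and the lactate carrier Slc16a1 at 524 ± 56.0 TPM. Among 14 amino acid carriers 12 reached 1 TPM. Slc7a5 (LAT1) had 1122 ± 99.4 TPM, 1.37 to 1.81 times the level of its heavy chain Slc3a2 (749 ± 29.2 TPM).

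Efflux pumps of the ABC family rested on few genes. Abcb1a, the P-glycoprotein of the mouse barrier, stood at 2196, 1942, 2097, 1924 and 2179 TPM in males 1 to 3 and females 1 and 2, and its paralog Abcb1b at 1.18 to 1.51 TPM. Levels of Abcb1a were 1541 ± 158 times those of Abcb1b, although reads shared by such similar genes could be split by the counting. Abcg2 (BCRP) had 746 ± 41.2 TPM and Abcc4 (MRP4) 261 ± 23.03 TPM. Of 50 family members 29 (58.0%) reached 1 TPM, beside 48.9% of all genes.

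Genes of vesicle traffic were present as well. Mfsd2a, a lysolipid transporter that restrains caveolae in this endothelium, stood at 760 ± 44.9 TPM and Cav1, the caveolar coat protein, at 503.5 ± 39.4 TPM, and Mfsd2a was higher in every library by 1.33 to 1.78 times. Tfrc, the transferrin receptor, had 815 ± 112 TPM and the insulin receptor Insr 106 ± 14.8 TPM, whereas Lrp1, a large lipoprotein receptor, had 5.79 ± 1.13 TPM. Basement membrane genes held 0.925 ± 0.0465% of TPM, led by Spock2, a proteoglycan gene, at 4163 ± 235 TPM. Col4a1 exceeded Col4a2 by 1.41 ± 0.0477 times, and the laminin chain Lamb2 stood at 450 ± 19.0 TPM while Lamb1 had 2.09 ± 1.28 TPM. The basement membrane receptors Itga6 (432 ± 33.9 TPM) and Itgb1 (424 ± 22.01 TPM) were the most abundant integrins.

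Receptors and nuclear factors of the pathways that shape brain vessels were abundant. In the Wnt list, 23 of 28 genes reached 1 TPM, and known target genes of beta-catenin were among them, Apcdd1 at 1176 ± 61.3 TPM, Nkd1 at 312 ± 23.2 TPM, Notum at 228 ± 18.9 TPM and Axin2 at 131 ± 9.93 TPM. The receptor Fzd4 stood at 170 ± 32.7 TPM, its partner Tspan12 at 89.6 ± 5.61 TPM, and the nuclear factor Lef1 at 269 ± 22.8 TPM. Wnt ligands were low, with 5 of 19 at 1 TPM or more, a sum of 22.2 ± 1.62 TPM and Wnt7a and Wnt7b, which neural cells send to brain vessels, at 0.954 and 0.731 TPM. All 16 VEGF pathway genes reached 1 TPM, and Flt1, the decoy receptor, exceeded Kdr, the main signalling receptor, 3.01 ± 0.206 times. The ligand Vegfa had 6.83 ± 1.099 TPM. The Tie receptors Tie1 and Tek stood at 815 ± 25.4 and 755 ± 56.4 TPM, a ratio of 1.08 ± 0.0762 with overlapping ranges, and Tek was 44.9 ± 6.78 times as abundant as its antagonist Angpt2. In the Notch list the target gene Hes1 (491 ± 72.0 TPM) and the ligands Jag2 (486 ± 38.9 TPM) and Dll4 (312 ± 42.04 TPM) led, and Dll4 was highest in control male 3 at 386 TPM.

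Other signalling and surface genes completed this profile. All 29 genes of BMP and TGF-beta signalling reached 1 TPM, with the receptor Acvrl1 (ALK1) at 834 ± 27.9 TPM and the target genes Id3 and Id1 at 951 ± 122 and 858 ± 95.9 TPM. S1pr1, the sphingosine phosphate receptor that steadies junctions, stood at 892 ± 106 TPM, and its ligand exporter Spns2 at 166 ± 12.6 TPM. Nos3, the endothelial nitric oxide synthase, had 672 ± 43.0 TPM. Plat, the tissue plasminogen activator, had 1363 ± 126 TPM, while Thbd, the anticoagulant thrombomodulin, had 438 ± 62.9 TPM and F3, tissue factor, 8.35 ± 1.55 TPM. The adhesion receptors Adgrl4 and Adgrf5 stood at 1121 ± 87.0 and 1101 ± 71.2 TPM. B2m, the light chain of MHC class I, ranged from 2525 TPM in male 3 to 4113 TPM in female 1.

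Among 32 transcription factors listed for brain endothelium, a list that holds no immediate early gene of the AP-1 family, the highest were Klf2 and Klf4, which respond to blood flow, and Epas1, the hypoxia-inducible factor HIF-2 alpha. Klf2 stood at 3988, 4752, 3965, 5024 and 4960 TPM in males 1 to 3 and females 1 and 2, Klf4 at 3591 ± 157 TPM and Epas1 at 2140 ± 158 TPM. The part of dissociation and sorting in these levels was not tested. The forkhead genes Foxq1 (434 ± 18.5 TPM) and Foxf2 (423 ± 14.4 TPM) had narrow ranges. The SoxF genes Sox7, Sox17 and Sox18 stood at 438, 278 and 238 TPM, and the ETS genes Ets1 and Erg at 423 and 322 TPM. Of the 32 factors, 30 reached 1 TPM. By contrast none of the 39 Hox genes did, and 31 of them had no recovered read in 193M.

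Markers of vessel segments were compared by summed level, and in a bulk sample fewer cells of a type and less RNA per cell cannot be told apart. The 12 capillary genes summed to 12941 ± 419 TPM, the 17 arterial genes to 2242 ± 125 TPM and the 16 venous genes to 1297 ± 104 TPM, and lists of unlike genes give no cell shares. Capillary genes were led by Spock2, Car4, a carbonic anhydrase, at 1653 ± 153 TPM, and Pglyrp1, a peptidoglycan recognition protein, at 1152 ± 78.2 TPM. Among arterial genes Gkn3 had 146 ± 33.1 TPM and Mgp, an inhibitor of vessel calcification, 157 ± 25.7 TPM. Among venous genes Slc38a5, a glutamine carrier, had 256 ± 33.7 TPM and Vwf, von Willebrand factor, 136 ± 14.9 TPM. Adhesion molecules for leukocytes were unequal, with Icam2 at 419 ± 21.7 TPM, Icam1 at 260 ± 37.6 TPM, Vcam1 at 41.7 ± 5.47 TPM, and the selectins Sele and Selp at 1.34 and 0.0351 TPM (0.0191 TPM for Selp without female 2). Of 18 cell cycle genes 10 (55.6%) reached 1 TPM, beside 48.9% of all genes. Pcna, which also serves DNA repair, stood at 550 ± 39.2 TPM, and Mcm6, Mcm3 and Mcm2, subunits of the replicative helicase, at 28.1, 22.99 and 16.9 TPM. Mki67 and Top2a, made in dividing cells, stood at 0.277 and 0.440 TPM.

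Of 17 genes listed for fenestrated and peripheral endothelium, 10 (58.8%) reached 1 TPM, not far from the 48.9% of all genes. The list summed to 331, 504, 301, 395 and 447 TPM in males 1 to 3 and females 1 and 2. The most abundant was Tbx3, a T-box factor, at 169 ± 9.89 TPM, with females 1 and 2 and male 3 above males 1 and 2. Plpp1, a lipid phosphatase, stood at 74.3 ± 15.8 TPM, and Tcf15, a helix-loop-helix factor, at 35.8 ± 11.7 TPM. Plvap, the diaphragm protein of fenestrae, stood at 20.6, 117.5 and 0.519 TPM in males 1 to 3 and 38.2 and 72.9 TPM in females 1 and 2. Esm1, a secreted proteoglycan, had 3.26, 21.0, 0, 10.6 and 14.5 TPM in the same order, and Gpihbp1, which holds lipoprotein lipase on capillaries, 2.27, 8.70, 0, 3.67 and 5.36 TPM. Plvap, Esm1 and Gpihbp1 ordered the libraries alike, with male 2 highest, then female 2, female 1, male 1 and male 3. The collagens Col13a1 at 2.45, 10.2, 0.0661, 3.43 and 8.22 TPM and Col15a1 at 1.13, 7.37, 0.432, 3.56 and 7.27 TPM followed that order too. Esm1, Gpihbp1, these collagens and the shared order were picked out after the values were seen, and the mean of Plvap fell to 33.0 TPM without male 2. Plpp1 kept the shared order except that male 1 (68.3 TPM) stood above female 1 (67.6 TPM). Tcf15 kept it except that female 2 (48.1 TPM) stood above male 2 (45.6 TPM). Tbx3, Cldn5 and Slc2a1 followed other orders, with Slc2a1 highest in male 3.

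Markers of other cell types were low in sum. All 13 lists of such markers, 173 genes counted once, held 0.242 ± 0.0314% of TPM, against 2.76% for the pan-endothelial list of 30 genes, and shares of TPM are not shares of cells. The range was 2118 TPM in male 3 to 2927 TPM in male 1. Without the 2 most abundant markers of each list the share was 0.0686% of TPM. The cause of the residual levels was not tested.

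Markers of mural cells, the pericytes and smooth muscle that wrap vessels, were at low levels. In the pericyte list all 15 genes reached 1 TPM and the sum ranged from 364 to 534 TPM, but Rgs5 gave 266 ± 47.3 TPM of it, and Pdgfrb, the defining receptor of pericytes, stood at 13.3 ± 2.07 TPM. Kcnj8, a potassium channel subunit of pericytes, had 5.27 ± 0.989 TPM. Pecam1 exceeded Pdgfrb by 90.0 to 130 times. The smooth muscle list summed to 259 to 392 TPM, with Acta2 at 64.9 ± 19.7 TPM, Tagln at 71.3 ± 14.7 TPM and Myh11 at 30.7 ± 6.16 TPM. Control male 2 and female 1 were the highest for Acta2, at 83.2 and 88.8 TPM, and female 2 the lowest at 45.1. Fibroblast genes summed to 11.6 to 17.5 TPM, with Col1a1 at 0.291 TPM and Dcn, decorin, at 1.30 TPM.

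Microglial markers differed widely between libraries. Csf1r had 6.78, 12.3, 20.2, 0.0689 and 14.7 TPM in males 1 to 3 and females 1 and 2, and Cx3cr1 2.15, 3.78, 3.93, 0 and 6.66 TPM. Female 1 was low in both, as in P2ry12 (0.278 TPM against 3.51 to 7.399) and C1qb (0 against 10.9 to 24.9), a complement subunit. The list of 23 genes summed to 65.6 TPM in female 1 and to 151 to 271 TPM in the others, and 21 of 23 had a mean of at least 1 TPM.

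All 17 astrocyte genes reached 1 TPM, and they summed to 371 to 579 TPM. Cpe (145 ± 28.4 TPM) and Clu (121 ± 27.2 TPM), which other cells also make, were the highest, followed by the connexin Gja1 (62.1 ± 6.81 TPM) and the receptor Fgfr3 (28.4 ± 4.31 TPM), while Aqp4, the water channel of astrocyte endfeet, stood at 2.19 to 5.78 TPM and Gfap at 1.84 ± 0.309 TPM. The oligodendrocyte sum of 495 ± 28.3 TPM rested on Mal (337 ± 13.2 TPM) and Car2 (126 ± 17.3 TPM). The myelin genes Mbp and Mog stood at 0.363 and 0.222 TPM, and 9 of 14 genes of the list were below 1 TPM. Of 17 neuronal genes 7 (41.2%) reached 1 TPM, beside 48.9% of all genes. Stmn2, which also stands in the arterial list, gave 47.8 of the 61.6 TPM. Snap25 and Rbfox3 had 2.10 and 0.106 TPM.

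Ependyma and choroid plexus genes held 0.0311% of TPM, and 0.0191% without male 1. Ttr, transthyretin, the main secreted protein of the choroid plexus, had 558, 131, 0, 1.68 and 119 TPM in males 1 to 3 and females 1 and 2. Without male 1 its mean fell from 162 to 62.8 TPM. Kl and Folr1, other choroid plexus genes, were highest in male 1 too, at 5.66 and 4.58 TPM. The ciliary factor Foxj1 of ependyma followed another order, at 11.4, 8.57, 4.22, 12.3 and 4.85 TPM. Among blood cells, leukocyte genes summed to 3.38 to 21.4 TPM, with Ptprc at 0.670 TPM and Cd3e at 0.0117 TPM, all of it from female 2. The 4 globin genes (Hba-a1, Hba-a2, Hbb-bs and Hbb-bt) had no recovered read, but their near-identical copies make this uncertain, and Alas2, an enzyme of haem synthesis, stood at 59.1 ± 19.8 TPM. Lymphatic endothelium was near 0 by Prox1 (0.154 TPM) and Lyve1 (0.310 TPM), while Flt4, which blood endothelium also carries, had 143 ± 15.2 TPM.

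**Figure D3:**
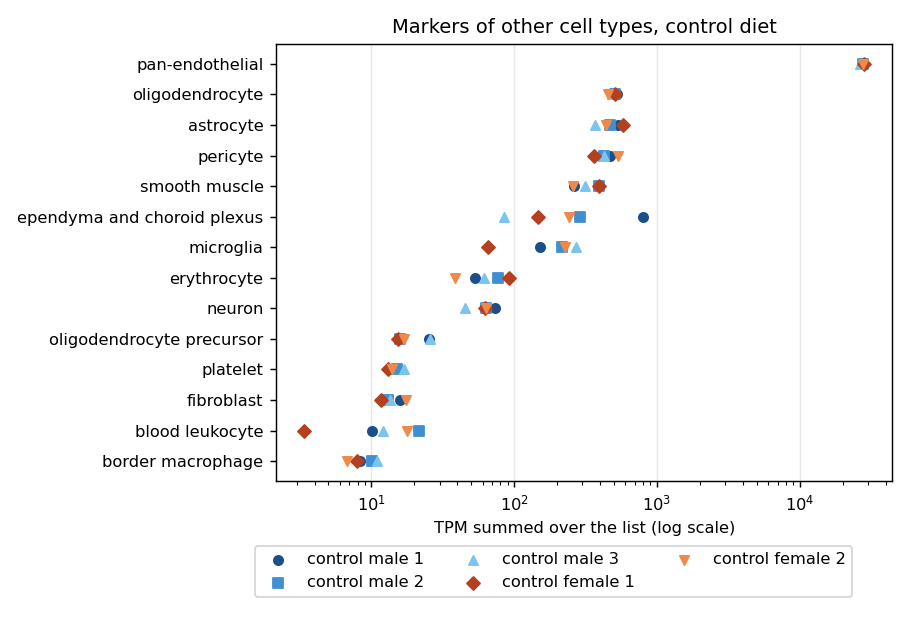
TPM summed over each marker list (x axis, log scale) for 13 other cell types and the pan-endothelial list (y axis), with a point for each of 5 libraries. The pan-endothelial sums lie between 26244 and 28369 TPM, all above the other lists, and the widest relative spread is in the ependyma and choroid plexus, microglia and blood leukocyte lists.

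The spread between libraries was small for most genes. Over 10131 genes at a mean of at least 5 TPM the median coefficient of variation (CV, the SD as a percent of the mean) was 9.21%. The median CV that counting of reads alone would give was 2.79%, a separate median, and CVs do not add. At 50 TPM and above the median was 7.46% over 3764 genes, with 3.12% at the 5th percentile. Among the 40 most abundant genes App, the amyloid precursor protein, varied least, at 2478, 2428, 2471, 2486 and 2497 TPM, a CV of 1.08%. Its homologue Aplp2 had a CV of 1.03% at 851 TPM, and Elk3, an ETS factor, 1.26% at 197 TPM. Pecam1 stood near them at 1.84%.

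The most variable genes at 50 TPM and above were, in order, Ttr, Ddx3y and Eif2s3y of the Y chromosome, the inducible heat shock gene Hspa1b, the small RNA feature Mir6236 and Hspa1a, a second inducible heat shock gene. Hspa1b stood at 945, 610, 147, 471 and 130 TPM in males 1 to 3 and females 1 and 2, and Hspa1a at 1193, 832, 356, 724 and 308 TPM. The 2 heat shock genes are near-identical copies whose reads could be split by the counting, and both ran from highest in male 1 to lowest in female 2. Mir6236 had 1149 TPM in female 2 and 236 to 509 TPM in the others. Igfbp3, an IGF-binding protein, had 31.7, 84.9, 26.9, 51.4 and 59.3 TPM, the same order of libraries as Plvap. Cd24a, a surface glycoprotein, was highest in male 2 at 107 TPM. Features of small RNAs, 1314 in all, held 0.689% of TPM and 0.0253% of reads, and their levels in polyadenylated libraries without strand are uncertain.

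**Figure D4:**
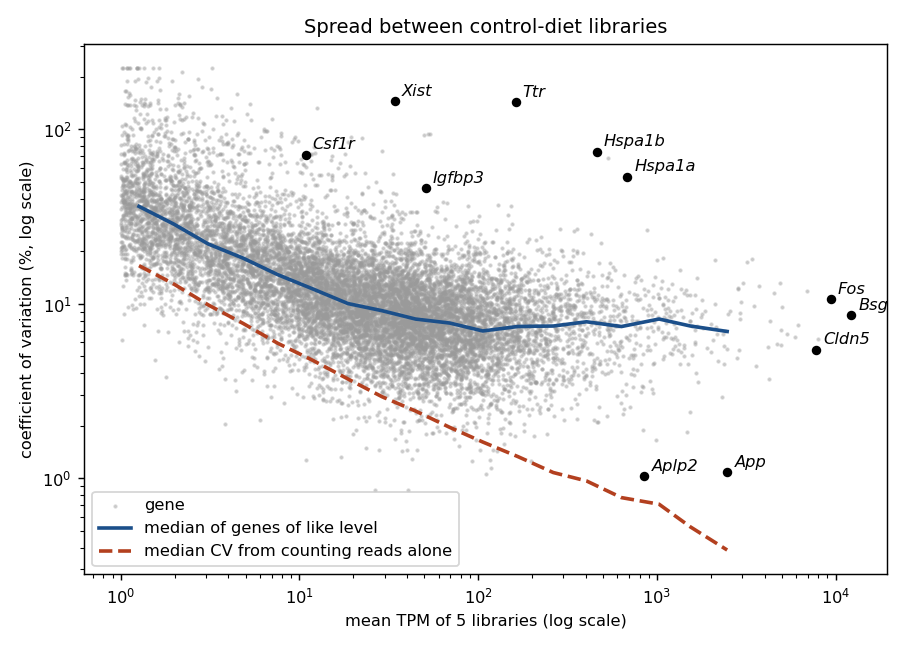
CV between 5 control-diet libraries in percent (y axis, log scale) against mean TPM (x axis, log scale), with a grey point for each gene at 1 TPM or more, a blue line for the median of genes of like level and a red dashed line for the median CV that counting gives. Aplp2 lies near the counting line and App somewhat above it, both well under the median of like genes, and Ttr, Xist, Hspa1a and Hspa1b lie far above the median.

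Libraries deviated from each other by gene length. Genes were split by length into 5 bins of nearly equal number, and each library's median log2 deviation from the mean of 5 was taken. In female 2 it ran from -0.09 in the shortest bin (up to 1623 bases) to 0.17 in the longest (from 5109 bases), while in female 1 it ran from 0.07 to -0.10 and in male 2 from 0.07 to -0.08. Female 2 was the highest library for 32.4% of genes and male 3 the lowest for 28.5%. Long genes such as Hmcn1, a matrix protein of 18316 bases, were highest in female 2, at 136 TPM against 74.2 to 83.3, and short ones such as Rplp1 lowest, at 1512 TPM against 1802 to 1875. The part of RNA integrity or library preparation in this was not tested.

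**Figure D5:**
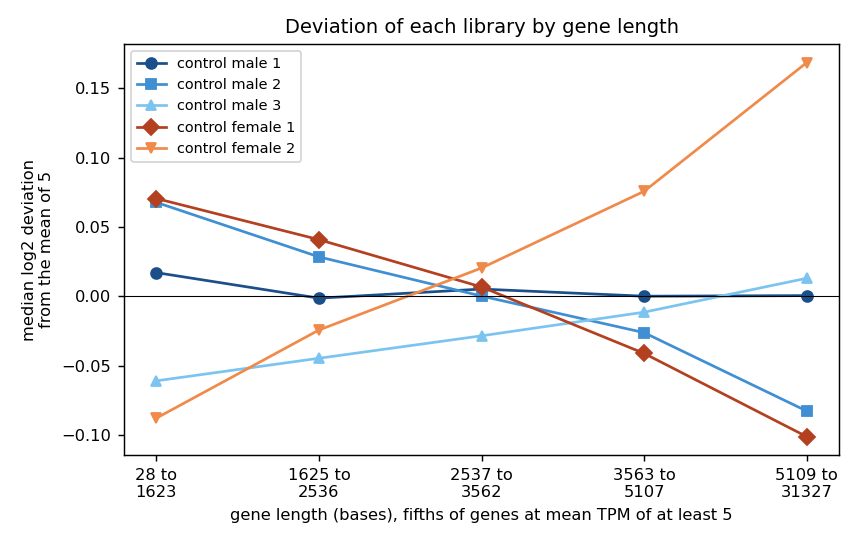
Median log2 deviation of each library from the mean of 5 (y axis) in 5 bins of 10131 genes by length in bases (x axis), with a line for each library. Female 2 rises from -0.09 to 0.17 with length, and female 1 and male 2 fall.

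A list of 17 genes of the circadian clock was added after the values were seen, because of their spread. Its sum was 2366, 2493, 3228, 2154 and 2722 TPM in males 1 to 3 and females 1 and 2. Nr1d1, a repressor of the clock, had 603 TPM in male 3 and 322 to 442 TPM in the others, and Ciart, another repressor, 525 against 298 to 331. Male 3 was the highest for the sum and for both genes, and of these its gap to the next library exceeded Dixon's limit for Ciart alone. Per1 was as high in female 2 as in male 3, at 649 and 640 TPM. The labels give no time of day of collection. Interferon-stimulated genes spread in another order, with 4818 TPM over 24 genes in female 1 and 3138 in male 3, and Ifit3 at 212 and 91.6 TPM in those libraries.

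Sex was the one labelled factor within control diet, and few genes differed by it. In limma, on log2(TPM + 1) over 13136 genes, 5 genes passed an adjusted p of 0.05 (Benjamini-Hochberg, two-sided), which is 0.0381% of those tested (0.0305% higher in males and 0.00761% higher in females), and 360 had an unadjusted p under 0.05. The Y-linked genes Ddx3y, Eif2s3y, Uty and Kdm5d were higher in males and listed at 0 in both females. Ddx3y, an RNA helicase gene, had 85.8, 76.2 and 108 TPM in the males (limma adjusted p = 1.48e-06). Xist, the RNA that silences an X chromosome, was higher in females, at 62.9 and 107 TPM against at most 0.0992 TPM in males, a log2 difference of males minus females of -6.29 ± 0.24 (SE, limma adjusted p = 1.79e-05). All 5 match the labelled sexes. Kdm5c, an X-linked gene known to escape silencing, had 39.6 and 48.0 TPM in females and 24.8 to 26.8 TPM in males without passing the test (limma adjusted p = 0.276). In simulated data with 2-fold changes the test called 58% of changed genes, and at the smallest fold simulated none, so small differences by sex were not detectable with 3 against 2 libraries.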

How the data were processed

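Polyadenylated RNA of CD31-positive brain cells went into libraries that keep no strand, per the labels' protocols, so reads of overlapping and antisense genes stay mixed. STAR 2.7.10a aligned the reads to mm39 and featureCounts (Subread 2.0.1) counted them per gene, per the submitters' processing notes. For 26264 genes the authors deposited TPM, used here for all levels. A second table, deposited by the authors, holds their DESeq2 diet contrast with log2 fold changes, p-values and scores such as the mean count (the submitters' processing notes name DESeq2 1.32.0 and R 4.1.0). Of that table only the mean count was used. Joined with TPM it gave back whole reads (100.0% whole within a tolerance of 0.05 reads), and from these came depth, gene lengths and shares of reads.

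Genes were ranked by mean TPM over the 5 libraries and described by mean, SD and CV. The CV that counting alone would give came from recovered reads (Poisson). Levels, ranks and shares carry no test. Sex was compared with limma (3.58.1, R 4.3.3) on log2(TPM + 1), trended variance and no covariate, in genes at 1 TPM or more in at least 2 of the 5 libraries, a scale on which changes of low genes come out too small. The p-values measure the spread between these few mice. The test was checked on simulated data for the same 13136 genes, of which 200 were changed. Python 3.11.15, numpy 2.4.6, pandas 2.3.3 and matplotlib 3.10.9 did the rest.

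The libraries described, the 54 gene lists and the 22 families by symbol were chosen with earlier results of these data known. Genes named are the 40 most abundant, the 4 highest of each list (and the 2 lowest of lists of other cell types, zonation and signalling), the 3 highest of each family, the 12 most and 12 least variable at 50 TPM or more, the genes called by sex and the 5 markers. A further 47 genes, named for their role or after their values were seen, lie outside that rule. Promoter sequences are from RefSeq (GRCm38.p6). Alternatives were leaving out each library, medians, other thresholds, shares of reads, quantile and median-of-ratios scaling, marker subsets and other settings of the sex test. Of these, leaving out small RNA features and leaving out the 2 most abundant markers of each list were chosen after seeing the data. The diet comparison is not analysed here, and a few genes are left out of the text.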

Additional observations from a re-analysis of the deposited data

Results flagged for a closer look

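Among 5 libraries, a value was singled out when its gap to the nearest library exceeded 0.71 of the whole range (Dixon's 95% critical value). Chance alone marks about 5% of independent groups, and the rule marked 21 of 259 gene levels and sums over lists or families, 8.11%. These percentages cannot show an excess. Some of the genes, such as Ciart, Kl, Folr1 and Cd3e, were named after values were seen, and Ttr for its high CV. Others, such as Rplp1 and Flt4, count both alone and in a sum. Control female 2 held 11 of them and control male 1 held 5.

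Female 2 was low in Tpt1 (3708 TPM, against 4351 to 4542 in the others), Rplp1 (1512 TPM, against 1802 to 1875) and the sum of cytosolic ribosomal proteins (55929 TPM, against 65154 to 67794). It was high in Slc7a5 (1293 TPM, against 1053 to 1120), Kdr (652 TPM, against 570 to 588), Flt4 (169 TPM, against 132 to 141), which also carried the lymphatic sum (172 TPM, against 135 to 145), Hmcn1 (136 TPM, against 74.2 to 83.3) and the sum over genes of the forkhead family (1941 TPM, against 1801 to 1832). It was also the highest for 2 genes near 0, Selp (0.0989 TPM) and Cd3e (0.0584 TPM). Selp rested on 8 recovered reads over the 5 libraries and Cd3e on 1, and the rule marks any gene with a single read. The same library was higher with gene length, by a median log2 deviation of 0.17 in the longest genes, and the part of length in these values was not tested.

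Male 1 was high in Ttr (558 TPM, against 0 to 131), Kl (5.66 TPM, against 0.163 to 1.11), Folr1 (4.58 TPM, against 0.446 to 1.55) and the sum of ependyma and choroid plexus genes (793 TPM, against 84.6 to 289). It was low in Eng (1286 TPM, against 1428 to 1461).

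Male 3 was low in Ctnnb1 (1455 TPM, against 1648 to 1691) and high in Dll4 (386 TPM, against 282 to 302) and Ciart (525 TPM, against 298 to 331). Male 2 was low in Egr1 (3764 TPM, against 5019 to 5356), and female 1 was high in Sox18 (316 TPM, against 205 to 234).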

How the results depend on the processing

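Of the 141 recomputed main values 125 stayed within their limits. Shares of reads in place of TPM moved those of the 10, 50 and 100 most abundant genes to 6.25%, 16.9% and 23.6%, immediate early genes to 5.50%, ribosomal proteins to 1.81%, solute carriers to 3.22%, tight junction genes to 0.911%, the pan-endothelial list to 3.35%, actin genes to 1.30%, translation factors to 1.12%, chaperones to 1.20% and basement membrane genes to 1.63%. The share of other cell type lists was 0.0686% without the 2 most abundant markers of each, and 0.221% with markers that stand in 1 list.

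Leaving out each library in turn gave 12774 to 12867 genes at 1 TPM, a median CV of 8.23% to 9.51% and 25.9% to 26.2% of TPM in the top 100. It moved some levels by over 1.5 times, among them Plvap to 33.0 TPM without male 2, Ttr to 62.8 TPM without male 1 and Xist to 15.8 TPM without female 2.

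The number of genes called by sex was 8 with no filter, 9 with a constant prior variance, 33 with the replicate number as a block, and 5 to 7 without each library, with the 5 genes among them in each. The numbers do not show pairs, since same-numbered males and females correlated by 0.05 and -0.22 in their deviations over 10131 genes, so the block result shows no more than how the fit moves. Leaving out mitochondrially encoded genes was not run, as none are listed in the table, nor were edgeR, DESeq2 and TMM scaling, since the authors' values are TPM. Depth limits the lowest genes: 3 reads at the smallest depth are 0.107 of every 1000000 reads.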
